A study of Homo sapiens with 2 samples.

Results

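The lysyl oxidase family in humans consists of LOX and the LOX-like genes LOXL1, LOXL2, LOXL3 and LOXL4. Rows were taken from the gene expression tables of a SETD2 wild-type and a SETD2 knockout renal carcinoma line by these 5 symbols, and all 5 were found among 23375 gene rows. The wild-type group was 1 library of 786-O, an established clear cell renal carcinoma line that lacks functional VHL. The knockout group was 1 library of a 786-O line in which SETD2, the enzyme that places the trimethyl mark of H3K36, had been disrupted with a zinc finger nuclease, a designed DNA-cutting protein. Both lines were grown in RPMI1640 with serum and were given medium only, and both carry the VHL background of 786-O. The labels do not say whether the knockout line was 1 clone. The comparison asks which transcripts differed between isogenic lines with and without intact SETD2.

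Lysyl oxidases are secreted copper enzymes that oxidise lysine side chains of collagen and elastin to aldehydes, which then react to form the covalent cross-links of the extracellular matrix. They share a conserved catalytic region at the carboxyl end. LOX and LOXL1 are made with propeptides that are removed outside the cell, whereas LOXL2, LOXL3 and LOXL4 carry scavenger receptor cysteine-rich domains instead. LOX and LOXL2 are known as transcripts induced by hypoxia-inducible factors, and in clear cell renal carcinoma loss of VHL stabilises these factors.

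Promoter sequences are shown for LOX and LOXL1, because these are the members whose levels differed most between the libraries. Windows from the RefSeq promoter table (GRCh38.p14) were used for 4 of the 5 members. No LOXL2 window was examined, so nothing is said here about its promoter. Each sequence below is the 250 bases before the outermost listed start, read 5′ to 3′ on the gene's strand, and capitals mark every ACGTG or GCGTG on either strand, the core letters of a hypoxia response element. These coordinates are on another build than those of the expression tables, which are on hg19. The LOX window is chr5:122078260-122078509 on the minus strand and the LOXL1 window is chr15:73926212-73926461 on the plus strand.
LOX: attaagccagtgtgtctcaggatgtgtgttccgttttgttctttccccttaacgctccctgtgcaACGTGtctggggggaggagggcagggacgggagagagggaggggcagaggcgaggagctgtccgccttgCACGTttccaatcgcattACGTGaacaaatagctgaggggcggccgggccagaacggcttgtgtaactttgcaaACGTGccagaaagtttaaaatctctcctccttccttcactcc
LOXL1: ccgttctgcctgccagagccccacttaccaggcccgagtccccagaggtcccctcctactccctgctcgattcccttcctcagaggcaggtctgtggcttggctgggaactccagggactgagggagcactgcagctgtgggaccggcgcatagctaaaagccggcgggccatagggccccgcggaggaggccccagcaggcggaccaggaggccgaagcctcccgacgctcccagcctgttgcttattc

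The LOX window held 4 matches to the core, beginning 185, 116, 98 and 42 bases before the start, and the LOXL1 window held 0. Of 34943 RefSeq windows of this length, 43.2% held at least 1 match and 3.21% held at least 4. Both windows had 13 CpG dinucleotides, against a median of 11 over all windows. RefSeq lists 2 further LOX starts inside the gene, whose windows overlap and held the same 2 hypoxia cores. Of all windows, 19.3% held at least 2. Neither printed window held CAGGTG, an E-box bound by SNAI1, on either strand. The 2 further LOX windows shared 1 such site, and the LOXL4 window and 1 of the LOXL3 windows held 1 each. Of all windows, 17.5% held it at least once. Neither printed window held the AP-1 letters TGACTCA or TGAGTCA, which 4.22% of windows held. The LOXL4 window (chr10:98268195-98268444) held 0 hypoxia cores and had 37 CpG dinucleotides. Of the 2 LOXL3 windows, 1 held 1 hypoxia core and 1 held 0. A match describes letters only and is not evidence of binding.

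Fragments assigned to genes numbered 62304084 in the wild-type and 50670012 in the knockout library. With 1 library per line there was no replicate error and no p-value, so each difference compares these libraries rather than the conditions, and all intervals are exact 95% intervals that cover counting error only. SETD2, the targeted gene (hg19 chromosome 3, 47057898 to 47205467), had 4908 wild-type and 1404 knockout fragments, a ratio of 0.334 (interval 0.314 to 0.354). Most markers of the labelled tissue were present in both libraries, among them the renal transcription factor PAX8 at 251 and 168 CPM (the count scaled to library size). The 6 renal epithelial markers summed to 1426 and 1342 CPM, with 1 higher and 0 lower of 5 tested. The higher one was CDH6, a cadherin, at 178 and 355 CPM. CA9, a VHL-dependent marker of clear cell carcinoma, had 1 wild-type and 0 knockout fragments. The 8 fibroblast markers summed to 6.11 and 2.98 CPM, with 3 lower and 0 higher of 7 tested, and the 6 endothelial markers to 3.05 and 2.23 CPM, with 1 higher and 1 lower of 4 tested. Of the endothelial markers, TEK was the higher one with 4 and 16 fragments, and ROBO4 the lower one with 130 and 46. The fibroblast markers DCN, COL1A2 and COL3A1 were at 2, 14 and 20 wild-type and 0, 0 and 2 knockout fragments, and the last 2 also stand in the list of fibrillar collagens. LUM, a small proteoglycan, made up most of the fibroblast sum with 4.14 and 1.52 CPM, while THY1 had 19 and 34 fragments and FAP 4 and 7. The 7 leukocyte markers summed to 93.6 and 320 CPM, of which LCP1, an actin-bundling protein, made up 50.9 and 277 CPM, while CD3E had 0 fragments in both libraries and PTPRC had 2 and 1. Of the others, CD68, a lysosomal protein, was at 38.6 and 39.6 CPM, CD14 had 7 and 38 fragments, CSF1R 198 and 68, and ITGAM 45 and 61. Of these 7, 5 were tested, with 2 higher and 1 lower. Over all genes tested, 10.4% were higher and 9.17% lower, by the rule defined below. The part of such markers in the results below was not tested.

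LOX and LOXL1 were lower in the knockout library, while LOXL2, by far the most abundant member, was not. The words higher and lower are used here for genes whose entire counting interval exceeded 1.5-fold. By this rule 2 of the 5 members were lower and 0 were higher. Among all 16894 genes tested, 9.17% were lower and 10.4% were higher. The median log2 ratio of the 5 members was -0.82, against 0.02 over all genes tested, and is the value of LOXL4 alone, which had few fragments.

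LOX (hg19 chromosome 5, 121398890 to 121414055) encodes the founding enzyme of the family, which cross-links fibrillar collagen and elastin. The wild-type library held 744 LOX fragments and the knockout library 76, or 12.3 and 1.46 CPM. The deposited RPKM, a level per length of the transcript, was 1.61 in the wild-type and 0.202 in the knockout library. The knockout level was the lower of the pair, and the counting intervals of the 2 levels (1.49 to 1.73 and 0.159 to 0.253 RPKM) did not overlap. Of the genes detected in each library, 42.9% lay below LOX in the wild-type and 26.1% in the knockout library. Scaled to library size, the knockout level was 0.119 of the wild-type level (interval 0.0928 to 0.151). Of all genes tested, 1.23% had a lower log2 ratio than the -3.06 of LOX. In bulk RNA, fewer cells that express a gene and less RNA per cell cannot be told apart.

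LOXL1 (chromosome 15, 74218789 to 74244478) encodes an enzyme that acts mainly on elastic fibres and is tied to their renewal. Fragments of LOXL1 numbered 944 in the wild-type and 207 in the knockout library, and its deposited RPKM was 4.66 and 1.26. The knockout level was again the lower one, without overlap of the counting intervals (4.37 to 4.97 and 1.09 to 1.44 RPKM), and 57.8% and 41.1% of detected genes lay below LOXL1. The ratio was 0.256 (interval 0.219 to 0.298), a 3.91-fold lower level in the knockout library. Its log2 ratio of -1.96 was undercut by 2.40% of all genes tested.

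LOXL2 (chromosome 8, 23154410 to 23261722), whose enzyme cross-links type IV collagen of basement membranes and has also been described in the nucleus, had 47187 fragments in the wild-type and 48876 in the knockout library. The deposited RPKM was 144 and 184, which placed LOXL2 at rank 287 of all gene rows in the wild-type and at rank 205 in the knockout library. The knockout level was 1.21 of the wild-type level (interval 1.19 to 1.22), short of the 1.5-fold required. At this depth the counting interval is narrow, and the choice of library scaling moves the ratio by more than the interval's width, with 1.28 from the deposited RPKM. Of all genes tested, 32.9% had a higher log2 ratio.

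LOXL3 (chromosome 2, 74759946 to 74781062), an enzyme needed for normal palate and spine development in mice, had 111 and 88 fragments. Its deposited RPKM of 0.415 and 0.405 lay close together, and the intervals overlapped. The ratio was 0.925, and its interval of 0.691 to 1.23 lay within 1.5-fold in both directions. LOXL4 (chromosome 10, 100007443 to 100028007), the remaining member, was near the limit of detection with 19 wild-type and 9 knockout fragments, or 0.0606 and 0.0354 RPKM. Its ratio of 0.552 had an interval of 0.220 to 1.28 in fragments. At this depth equal levels and a 4.54-fold lower knockout level cannot be told apart by that interval.

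**Figure D1:**
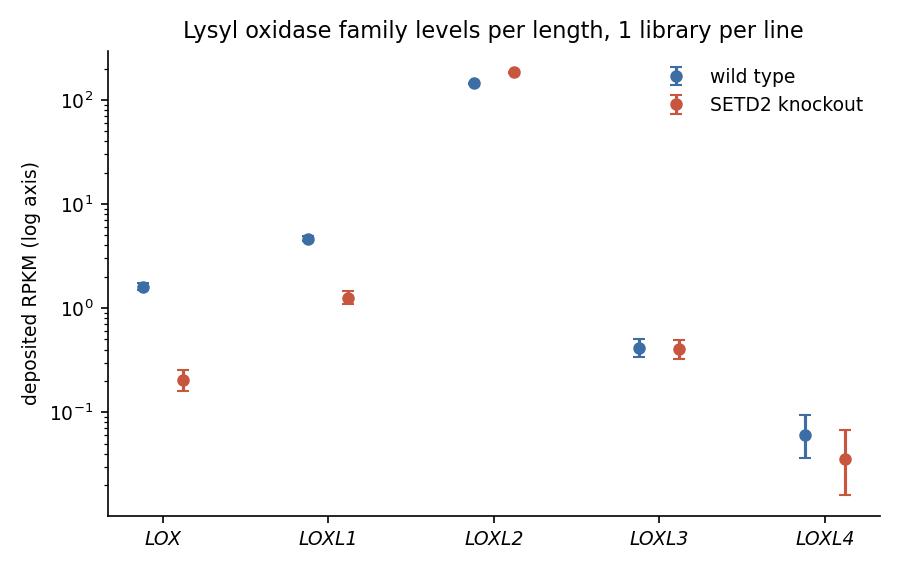
Deposited RPKM of the 5 members on a log axis in the wild-type (blue) and SETD2 knockout (red) library, 1 library each. Bars are exact 95% counting intervals. LOX and LOXL1 separate between the libraries, LOXL3 and LOXL4 overlap, and LOXL2 lies at 144 and 184, far above the other members.

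LOXL2 made up nearly all of the family's transcripts. The summed RPKM of the 5 members was 151 in the wild-type and 186 in the knockout library, and LOXL2 contributed 95.5% and 98.98% of it. The other 4 members together had 6.75 RPKM in the wild-type and 1.90 RPKM in the knockout library. LOX contributed 1.06% of the family sum in the wild-type and 0.109% in the knockout library, and LOXL1 3.08% and 0.676%.

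The order of the levels per length differed between the libraries at 1 place. In the wild-type library the order was LOXL2, LOXL1, LOX, LOXL3 and LOXL4, and in the knockout library LOXL3 stood above LOX. LOX was 3.87-fold above LOXL3 in the wild-type library (interval 3.17 to 4.77). In the knockout library LOXL3 was 2.003-fold above LOX (1.46 to 2.76). The other 9 of the 10 pairs of members kept their order, and in both libraries the interval of each of the 10 pairs lay above 1. LOXL2 exceeded LOX by 89.9-fold per length in the wild-type library (83.6 to 96.8) and by 911-fold in the knockout library (728 to 1157). It exceeded LOXL1 by 31.0-fold (29.0 to 33.1) and 146-fold (128 to 169). These comparisons rest on the table's length for each gene, which was 5399 bases for LOX and 2361 for LOXL1. Those with LOXL3, the change of order among them, also rest on a row that other genes overlap, as described below. The intervals do not cover reads shared with those genes.

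**Figure D2:**
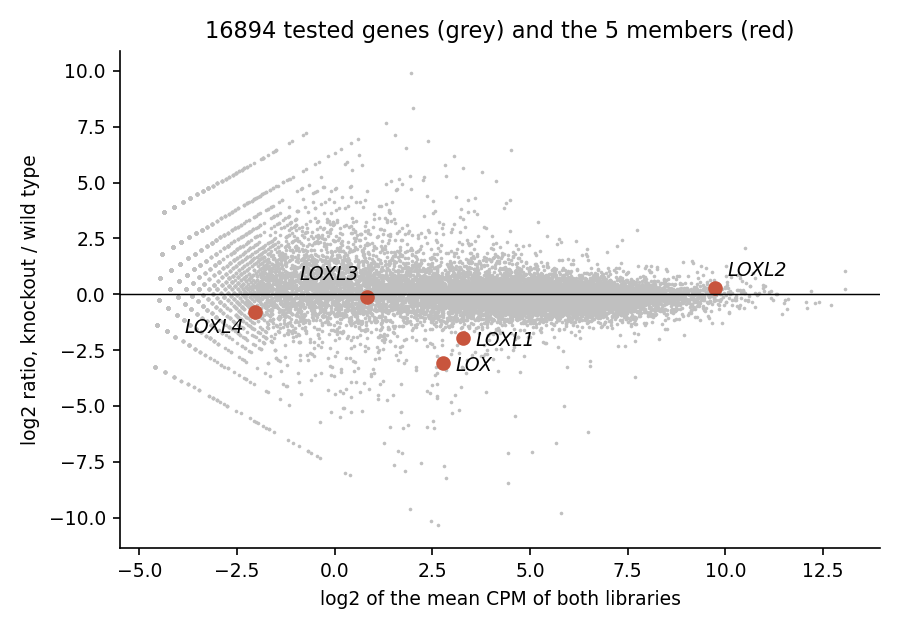
Log2 ratio of knockout to wild type against the log2 of the mean CPM of both libraries for the 16894 genes tested (grey) and the 5 members (red). LOX at -3.06 and LOXL1 at -1.96 lie above 1.23% and 2.40% of all genes tested, and LOXL2 lies at the abundant end near 0.

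The antisense partner of LOXL1 was lower as well. The row of LOXL1-AS1, listed under its RefSeq gene number as LOC100287616 (chromosome 15, 74209809 to 74220589), overlaps the first 1801 bases of the LOXL1 row, and RefSeq places it on the opposite strand. It is a long non-coding RNA, counted in 371 wild-type and 19 knockout fragments, or 1.52 and 0.0960 RPKM. This was a 16.7-fold lower level in the knockout library (interval 10.6-fold to 28.1-fold), and the ratio of 0.0597 was below that of LOXL1 without overlap of the intervals. The sources used here do not say whether counting used strand, so reads from the shared stretch cannot be assigned to LOXL1 or LOXL1-AS1. The flanking genes with at least 100 reads did not pass the 1.5-fold rule. CD276, an immune checkpoint protein 211930 bases away, had a ratio of 1.04 (interval 1.02 to 1.07), and STOML1, a stomatin-like protein on the other side, a ratio of 0.735 (0.677 to 0.797).

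The antisense row within LOXL2, LOC100507156 or LOXL2-AS1, had 442 and 331 fragments, a ratio of 0.873 (interval 0.755 to 1.01). All 29918 bases of this row lie inside the LOXL2 row, which had 47187 and 48876 fragments. Reads shared with LOXL2 make the values of LOXL2-AS1 uncertain. LOXL3 is overlapped at its ends by DOK1, an adaptor of tyrosine kinase signalling, over 4916 bases and by HTRA2, a mitochondrial protease, over 738 bases. DOK1 had 1136 and 990 fragments and HTRA2 had 1171 and 820, far more than the 111 and 88 of LOXL3, whose values are uncertain where reads are shared. The ratios of DOK1 and HTRA2 were 1.02 and 0.817, and neither passed the rule. No row overlapped LOX or LOXL4.

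**Figure D3:**
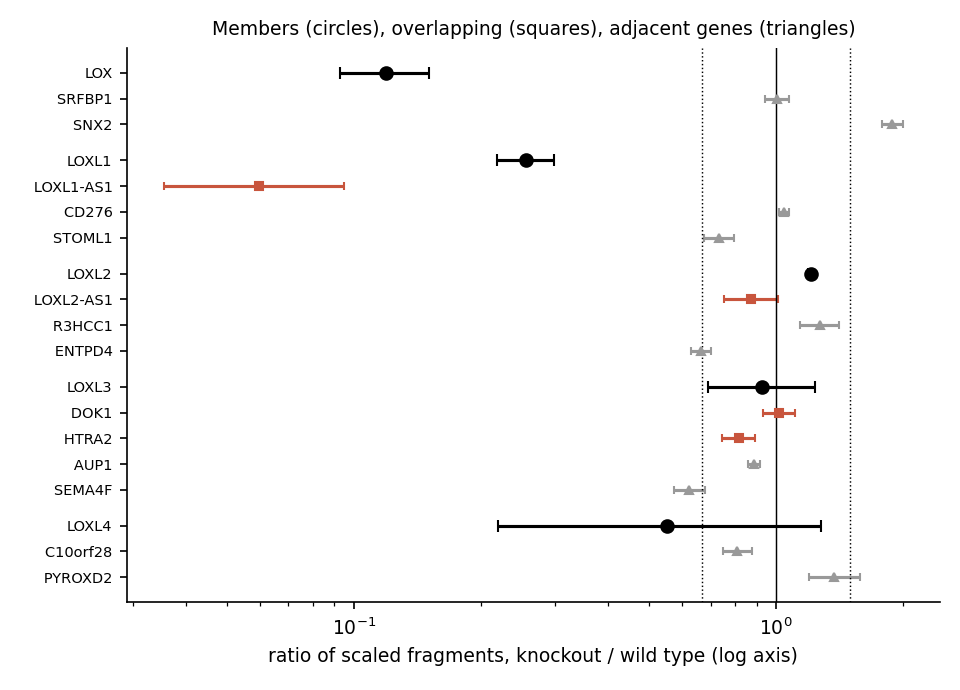
Ratio of scaled fragments, knockout to wild type, on a log axis for the members (black circles), rows that overlap a member (red squares) and the next gene on each side with at least 100 reads (grey triangles). Bars are exact 95% counting intervals and dotted lines mark 1.5-fold. LOX, LOXL1 and LOXL1-AS1 lie wholly below the lower line, and SNX2, next to LOX, lies above the upper line.

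The lower levels of LOX and LOXL1 stood apart from those of the genes around them. The 50 nearest genes with at least 100 reads had a median log2 ratio of 0.05 around LOX and -0.06 around LOXL1, and the difference from these medians was -3.11 for LOX and -1.91 for LOXL1 on the log2 scale. In each set, 1 of the 50 genes had a lower log2 ratio than the member, which was CSF2, a haematopoietic growth factor, around LOX and LOXL1-AS1 around LOXL1. Around LOX, 3 of the 50 genes were higher and 3 lower by the 1.5-fold rule. SRFBP1, 34595 bases from LOX and a cofactor of serum response factor, had 1838 and 1584 fragments and a ratio of 1.01 (interval 0.939 to 1.08). On the other side SNX2, a sorting nexin 696695 bases away, was higher with a ratio of 1.89 (1.78 to 1.996). LOXL2 lay 0.17 above the median of its 50 neighbours and LOXL3 0.03 above. For LOXL4 the difference was -0.75, and ARHGAP19 was the 1 neighbour of 50 with a lower log2 ratio. The copy number of these regions was not analysed here.

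**Figure D4:**
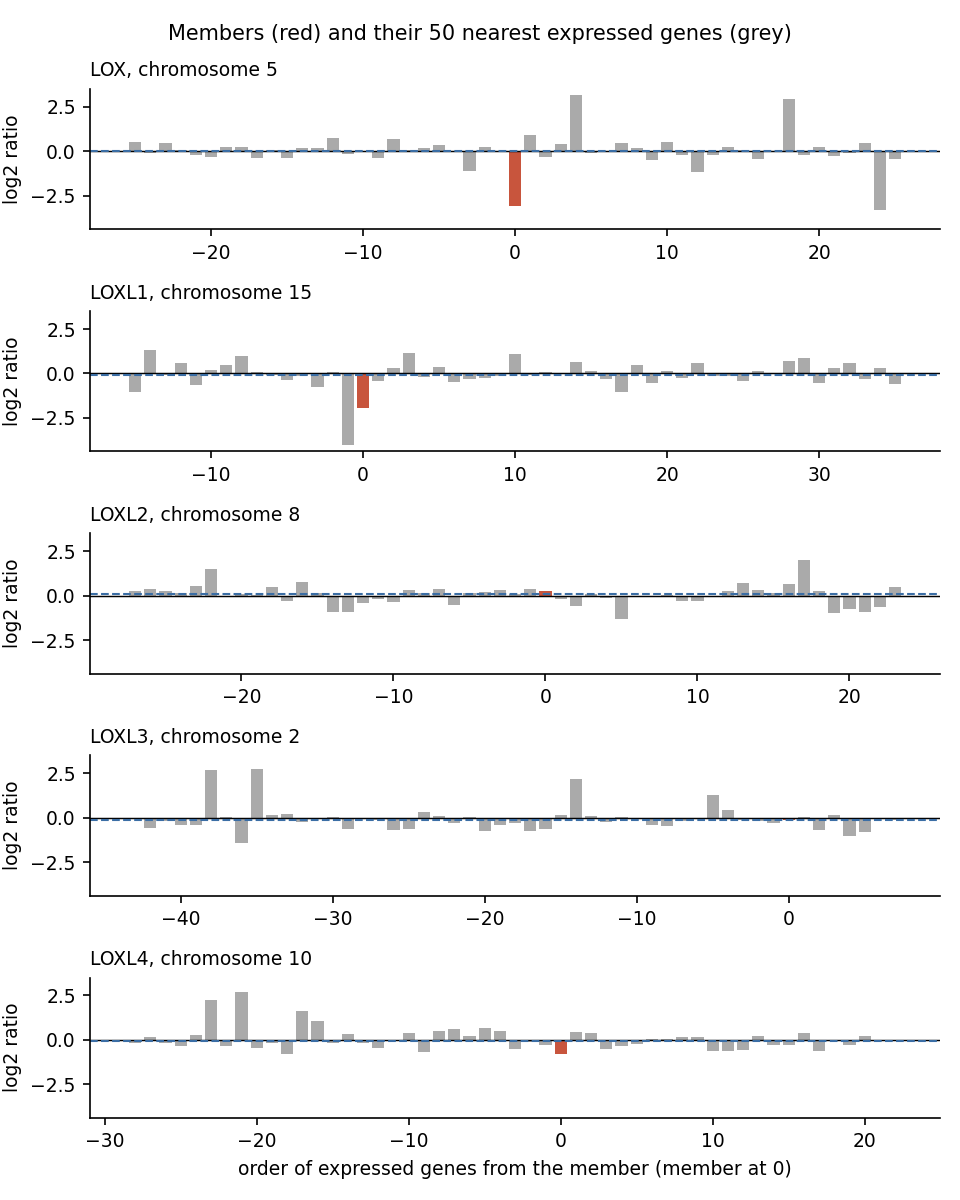
Log2 ratio, knockout to wild type, of each member (red, at 0) and its 50 nearest genes with at least 100 reads (grey), in their order along the chromosome. The dashed blue line is the median of the 50 genes. LOX and LOXL1 reach below nearly all of their neighbours, and the deepest bar beside LOXL1 is LOXL1-AS1.

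Among protein-coding genes, those closest to LOX in log2 CPM over the 2 libraries were COL14A1, a fibril-associated collagen, with 780 and 81 fragments, TYMP, thymidine phosphorylase, with 786 and 67, and FNDC4 with 654 and 83. Closest to LOXL1 were HHIPL2, GAB2, a docking protein of receptor signalling, and SEMA3B, a secreted semaphorin, with ratios of 0.314, 0.356 and 0.359. RPS18, a ribosomal protein, ITGAV, the alpha-V integrin, and CLTC, the clathrin heavy chain, were closest to LOXL2, with ratios of 1.14, 1.22 and 1.30. TTLL6, CCDC157 and CLDN18 were closest to LOXL3, and HIST1H4A, INHBE and RASL11B had the same 19 and 9 fragments as LOXL4. This likeness rests on 2 points per gene.

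The substrates of the family were measured in the same libraries. Each list count below is to be read beside the 10.4% higher and 9.17% lower of all genes tested. Of 11 fibrillar collagen genes 9 were tested, and 4 were higher, 3 lower and the median log2 ratio 1.17. COL11A2 had 45 and 170 fragments, a ratio of 4.41 (interval 3.16 to 6.26), and COL11A1 had 12 and 67, a ratio of 6.51 (3.49 to 13.2). COL5A2, a chain of the collagen that nucleates type I fibrils, was 6.47-fold lower with 1561 and 207 fragments. COL1A2, the second chain of type I collagen, had 14 and 0 fragments. Its exact interval put it at least 2.84-fold lower, and a floor of 3 knockout fragments gave 4.001-fold. COL1A1, the other chain, had 418 and 805 fragments and was higher with a ratio of 2.25 (1.99 to 2.53). The fibrillar collagens were therefore of mixed direction, with some of them at few fragments.

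Type IV collagens, the network of basement membranes and a substrate of LOXL2, were higher in 4 of 6 tested genes and lower in 0, with a median log2 ratio of 1.52. The genes farthest beyond the threshold were at few fragments, with COL4A4 at 5 and 60 (ratio 14.0, interval 5.68 to 44.7) and COL4A6 at 2 and 25 (ratio 14.6, 3.64 to 127). Of the abundant chains, COL4A1 had a deposited RPKM of 91.2 and 165 and a ratio of 1.71 (1.69 to 1.73), and COL4A2 96.3 and 151 RPKM and a ratio of 1.48 (1.46 to 1.497), just short of the rule. In both libraries LOXL2, at 144 and 184 RPKM, stood above either chain.

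Elastic fibre components were tested for 16 of 18 genes, with 3 higher, 2 lower and a median log2 ratio of 0.44. ELN, the elastin gene, had 25 and 15 fragments, a ratio of 0.700 with an interval of 0.343 to 1.38. LTBP3, a binding protein of latent TGF-beta, was 4.13-fold higher (interval 3.93 to 4.34) with 2086 and 7384 fragments. FBLN1, a fibulin, was seen in the knockout library alone, with 36 fragments against 0. Its exact interval put it at least 10.8-fold higher, and a floor of 3 wild-type fragments gave 14.0-fold. EFEMP1, another fibulin, was 6.94-fold lower with 2300 and 284 fragments, and LTBP1 had a ratio of 0.492 (0.377 to 0.638). The count of lower genes was 1 with total count or upper quartile scaling, a 99% interval or a 2-fold threshold, and that of higher genes was 6 with undivided counts and 7 without an interval. FBLN5, the fibulin that binds LOXL1, had 1 and 0 fragments.

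Genes that process the propeptides of LOX and of collagens, or that dock them in the matrix, were higher in 5 and lower in 2 of 11 tested genes, with a median log2 ratio of 0.70. BMP1, the protease that releases active LOX, had 5275 and 7682 fragments, a ratio of 1.70 (interval 1.64 to 1.76), and its relative TLL2 had 231 and 923, a ratio of 4.66 (4.03 to 5.41). FN1, fibronectin, which binds LOX and BMP1, was at 445 and 961 RPKM with a ratio of 2.05. ADAMTS14, a procollagen protease, had 5 and 44 fragments (ratio 10.3, interval 4.08 to 33.2). The 2 lower genes were PCOLCE and PCOLCE2, enhancers of procollagen cleavage, with ratios of 0.420 (0.306 to 0.568) and 0.486 (0.421 to 0.559). BMP1, the processing protease, was therefore higher in the library in which its substrate LOX was lower.

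**Figure D5:**
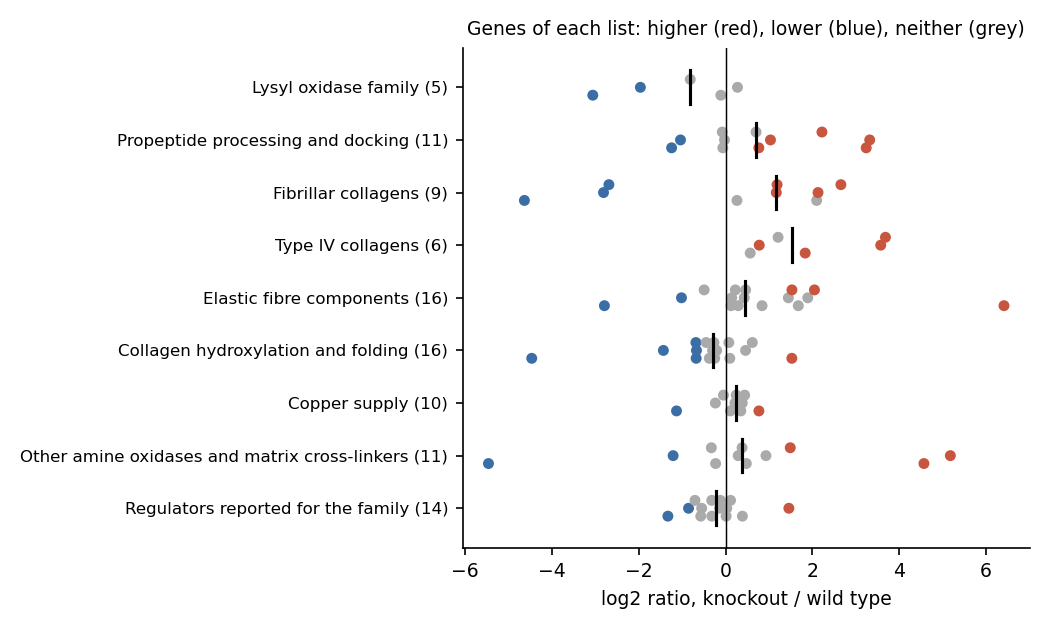
Log2 ratio, knockout to wild type, of each tested gene in the family and in lists of related genes, with the number tested in brackets. Genes are higher (red), lower (blue) or neither (grey) by the 1.5-fold rule, black bars are medians, and genes at 0 fragments in 1 library are drawn at the ratio with 0.5 fragments added. Type IV collagens lie to the right of 0, while most other lists spread to both sides.

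Enzymes and chaperones that modify collagen before it is cross-linked were lower in 5 and higher in 1 of 16 genes, with a median log2 ratio of -0.29. P4HA3, a prolyl hydroxylase subunit, had 64 and 2 fragments, a ratio of 0.0364 (interval 0.00432 to 0.137), and LEPREL2, a prolyl 3-hydroxylase, had 10094 and 3201, a ratio of 0.370 (0.355 to 0.385). Lysyl hydroxylases prepare the lysines on which the family acts. PLOD2, which modifies the telopeptides, had 43096 and 23186 fragments and a ratio of 0.628 (0.618 to 0.638), and PLOD3 a ratio of 0.622 (0.607 to 0.637), while PLOD1 had a ratio of 1.37 (1.35 to 1.40). GLT25D2, a collagen galactosyltransferase, was the 1 higher gene with 22 and 55 fragments. With total count scaling 2 of these genes were lower and 2 higher.

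Of 10 genes that supply copper 1 was higher and 1 lower, near the 10.4% and 9.17% of all genes tested, and the median log2 ratio was 0.23. ATP7A, the pump that loads copper into secreted enzymes, had 840 and 852 fragments and a ratio of 1.18 (interval 1.07 to 1.30). Its relative ATP7B was higher with a ratio of 1.70 (1.53 to 1.90), and COX17, a mitochondrial copper chaperone, lower with 0.456 (0.416 to 0.499).

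Other amine oxidases and matrix cross-linkers differed strongly in single genes, with 3 higher and 2 lower of 11 and a median log2 ratio of 0.38. PXDN, the peroxidase that forms the sulfilimine cross-links of type IV collagen, had 2908 fragments in the wild-type and 56 in the knockout library. It was 44.5-fold lower in the knockout library (interval 34.2-fold to 59.1-fold), a larger difference than that of LOX. AOC3 and ABP1, copper amine oxidases outside the family, had 1 and 30 fragments (ratio 35.0, interval 5.82 to 1428) and 0 and 15 fragments. The exact interval put ABP1 at least 4.18-fold higher, and a floor of 3 wild-type fragments gave 5.83-fold. MAOB, a mitochondrial monoamine oxidase, had a ratio of 0.431 (0.346 to 0.534). TGM2, the tissue transglutaminase, was abundant in both libraries at 142 and 119 RPKM, with a ratio of 0.796 (0.785 to 0.807).

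Of 15 genes reported to regulate members of the family 14 were tested, with 1 higher and 2 lower. Their median log2 ratio was -0.23, and over all genes tested 10.4% were higher and 9.17% lower. EPAS1, the HIF-2 alpha subunit, had 9324 and 4419 fragments and a ratio of 0.553 (interval 0.533 to 0.573). HIF1A had a ratio of 0.612 (0.556 to 0.674), which missed the rule, and ARNT, their partner, 0.682 (0.642 to 0.724). SMAD3, a transcription factor of TGF-beta signalling, was lower with a ratio of 0.398 (0.386 to 0.410), while TGFB1 had a ratio of 1.31 (1.26 to 1.35). SNAI1, a repressor of epithelial genes whose protein is known to bind LOXL2 and LOXL3, was higher with 661 and 1556 fragments and a ratio of 2.75 (2.51 to 3.01). The part of these regulators in the levels of LOX and LOXL1 was not tested.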

How the data were processed

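RNA from 2 libraries, 1 of the 786-O line and 1 of its SETD2 knockout, was analysed, each assigned to its group by its title. For each gene the authors deposited an unnormalised count of reads and its RPKM, as the file headers state. TopHat2 2.0.6, Bowtie and HTSeq with hg19 are named in the submitters' processing notes. Their settings, the annotation release and whether strand was used are not stated there. All counts were even, so they were divided by 2 to obtain fragments. RPKM as deposited equals that count over the table's gene length and over 1 library total, of which the table's counts made up 72.7% and 72.9%. The length column is headed as coding length, but 35.1% of its values are multiples of 3, so it appears to include untranslated bases. Of 23398 rows, 23 Y rows of genes with an X row were dropped.

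Libraries were scaled by TMM in edgeR 4.0.16 (R 4.3.3) on 16894 genes with at least 10 reads over both. Ratios have exact conditional (Clopper-Pearson) 95% intervals, and log2 ratios use 0.5 added fragments. No edgeR or DESeq2 test can be made with 1 library per line. Alternatives were total count, upper quartile and DESeq2 1.42.0 scaling, minimums of 1 and 50 reads, undivided counts, a 99% interval, the ratio alone, a 2-fold threshold, protein-coding genes only, the RPKM ratio and 20 neighbours. The members, lists and alternatives were chosen with earlier results of these data known. Named genes were the 5 members, SETD2, the rows that overlap or flank a member, and the 3 protein-coding genes nearest to it in log2 CPM. To these were added per list up to 2 higher and 2 lower genes farthest beyond the threshold, or the 2 most abundant where none passed. Other list genes, chosen for their role beside the members, and other markers were named after their values were seen. LOXL1-AS1 and LOXL2-AS1 were matched to their rows by RefSeq gene number. A marker of the leukocyte list is not reported here.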

Additional observations from a re-analysis of the deposited data

How the results depend on the processing

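The calls of LOX, LOXL1 and SETD2 as lower, and of LOXL2 and LOXL3 as neither, held under each alternative that gives a call, which the deposited RPKM and the neighbour comparison do not. The ratio ranged from 0.118 to 0.126 for LOX, 0.254 to 0.270 for LOXL1, 1.20 to 1.28 for LOXL2 and 0.918 to 0.977 for LOXL3. From the deposited RPKM the LOXL2 ratio was 1.28, outside its counting interval, as RPKM is by construction not TMM-scaled. LOXL4, with a ratio of 0.552, counted as lower when no interval was required, which made 3 members lower. With undivided counts the LOXL4 interval was 0.297 to 0.992, which excludes equal levels but does not pass the 1.5-fold rule. The 1.5-fold rule called 1756 genes higher and 1550 lower, the ratio without an interval 3538 and 2830, and the 2-fold rule 971 and 569. Counts of list members moved by over 1.5 times in 31 further cases, by at most 4 genes and in 21 of them by 1. No paired analysis was possible because each line has 1 library, and for the same reason no replicate could be left out. Depth limits LOXL4 most, with 19 and 9 fragments.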
